A study of Mus musculus with 8 samples.

Results

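The 5 genes described here, Grin1, Grin2a, Grin2b, Grin2d and Grin3a, encode subunits of the NMDA receptor. They were chosen by name, as the subunit genes whose sums over isoforms could be followed in ribosome footprints and in RNA, and are 5 of 18301 genes in the deposited table. All 5 were also among the 12898 genes with enough counts in both assays to be tested. The data come from mouse neurons collected on day 8 in vitro, which had been grown from CGR8, an embryonic stem cell line kept without feeder cells. The cultures were either wildtype or labelled as an Eif4g1/Eif4g3 double-knockout, abbreviated here to WT and DKO. These genes encode eIF4G scaffolds, which bring the ribosome to capped mRNA. Each of 4 groups (footprints of WT, footprints of DKO, RNA of WT, RNA of DKO) holds 2 libraries. All cultures received cycloheximide at 100 µg/ml for 5 minutes before footprinting, per the labels' protocol, and the growth protocol is the same for all groups. The culture codes in the labels differ, however: WT replicate 2 is coded as WT, whereas WT replicate 1 and both DKO cultures carry codes that start with c and a number. The WT groups thus hold 1 culture of each kind of code and the DKO groups only the second kind.

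The NMDA receptor is a glutamate-gated channel of the synapse that passes calcium and needs a second agonist, glycine or D-serine. GluN1, the product of Grin1, is present in every receptor and binds glycine, and GluN2 subunits bind glutamate. Among the GluN2 subunits, GluN2B (Grin2b) and GluN2D (Grin2d) are typical of the young forebrain, whereas GluN2A (Grin2a) accumulates as neurons mature, so that the balance of GluN2B and GluN2A is widely used as a sign of maturity. GluN3A (Grin3a) is another juvenile subunit, which binds glycine and lowers calcium entry.

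Footprint libraries held 10490535 to 19753419 estimated counts and RNA libraries 14762047 to 44786643. Levels are given in CPM, counts scaled to a common library total, with library sizes corrected by the trimmed mean of M-values (TMM). Neither targeted gene passed the test between genotypes. Eif4g1 footprints were 300 and 263 CPM in WT and 154 and 288 in DKO, and its RNA was 288 and 280 against 125 and 305. Eif4g3 footprints ranged from 153 to 172 CPM and its RNA from 103 to 138, with genotypes overlapping. The labels do not say which part of either gene was disrupted, so these levels do not check the genotype. The labels call the cells cortical and glutamatergic. Slc17a6, a vesicular glutamate transporter, had 74.3 to 234 CPM in footprints, but Slc17a7, Tbr1, Emx1 and Fezf2, which mark cortical excitatory neurons, all stayed at or under 0.312 there and at or under 1.045 in RNA. Some GABAergic genes were present in each footprint library, with Gad1 at 173 to 189 CPM and Slc32a1 at 215 to 248. Others of that list, Dlx1, Dlx2, Dlx5, Dlx6, Lhx6 and Pvalb, stayed at or under 1.24 CPM in footprints. Of its 13 genes 9 were tested. The WT replicate 2 culture stood apart, with the lowest summed glutamatergic markers (88.3 CPM in footprints against 183 to 253 elsewhere). Most of that sum was Slc17a6 alone, at 74.3 CPM there and 166 to 234 elsewhere. The same culture had the highest summed mesenchymal and endothelial markers (980 against 193 to 592).

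The deposited table does not hold each subunit in the same way, and this sets what its sums mean. Its matched transcripts all have support levels 1 to 3 in the GENCODE M21 annotation of mouse build GRCm38, and the 20999 annotated transcripts of protein-coding genes with support level 5 are not among them. Of the 5 genes, only Grin2b is affected in its coding part. The gene lies at chr6:135713233-136173511 on the minus strand, and both transcripts with its full coding sequence of 4446 bases, Grin2b-201 and Grin2b-202, have support level 5. Its 4 counted transcripts hold 1010 of those coding bases, which is 22.7%. Among genes with a coding sequence and a counted transcript, only 1% have a smaller share counted, and 92.3% have at least 99% of that sequence counted. The coding reads in Grin2b sums therefore come from the first 336 codons, which encode the signal peptide and most of the extracellular amino-terminal domain, and none from the agonist-binding or channel-forming parts.

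The other 4 genes were counted over their whole longest coding sequence. Grin1 lies at chr2:25291181-25319187, with 9 of 14 annotated transcripts counted. Grin2a lies at chr16:9567898-9995560, with 2 of 6 counted. Its only counted coding transcript, Grin2a-201, has 4395 bases for a coding sequence of 4392, so it holds almost no untranslated sequence. Grin2d lies at chr7:45831883-45878378 with 1 of 3 transcripts counted, and Grin3a at chr4:49661611-49845744 with 3 of 4. All 5 genes are on the minus strand. Of the remaining subunit genes, both transcripts of Grin2c have support level 5, and it is not analysed here. Grin3b had 0 to 2 counts in a footprint library and 3 to 14 in an RNA library, and was not tested. The library with 0, DKO replicate 1, allows up to 3 counts, or 0.312 CPM.

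**Figure D1:**
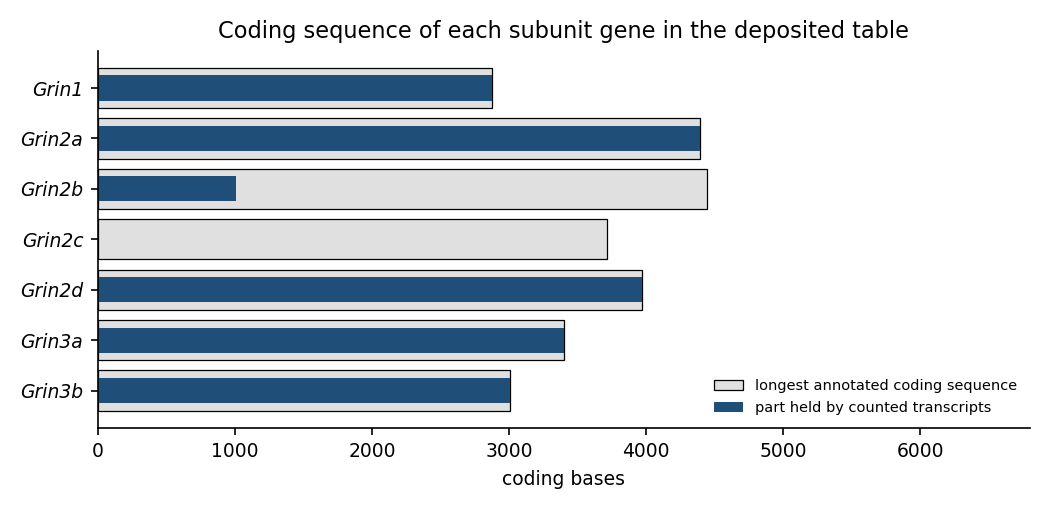
Coding bases (x axis) of the 7 NMDA receptor subunit genes (y axis), with the longest annotated coding sequence in grey and the part held by counted transcripts in blue. The blue bar of Grin2b ends at 1010 of 4446 bases, Grin2c has none, and the other 5 are counted in full.

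The 4 sequences below show where the table stops reading Grin2b and which stretches separate the isoforms of Grin1, since both bear on the values that follow. They are from GENCODE M21 transcripts and run 5′ to 3′ on the coding strand. In the Grin2b line, the lower case is the last 30 counted coding bases, at chr6:135922872-135922901 at the end of exon 5 of 15 in Grin2b-202. Its capitals are the first 30 bases of the next exon, at chr6:135843173-135843202, from which no read was counted. In the Grin1 lines the capitals are the alternative stretch and the lower case the 9 coding bases on its flanks. The N-terminal cassette of 63 bases (chr2:25311343-25311405, exon 4 of 20 in Grin1-207) adds a basic loop to the extracellular domain. The C1 cassette of 111 bases (chr2:25294438-25294548, exon 19 of 20 in Grin1-201) and the C2 stretch of 114 bases (chr2:25292371-25292484, in exon 20) encode the long intracellular tail. C1 carries an endoplasmic reticulum retention signal.
Grin2b end of counted part: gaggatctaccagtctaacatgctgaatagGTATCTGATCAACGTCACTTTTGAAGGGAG
Grin1 N-terminal cassette: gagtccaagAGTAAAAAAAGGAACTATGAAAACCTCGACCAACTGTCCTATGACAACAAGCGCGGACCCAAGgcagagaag
Grin1 C1 cassette: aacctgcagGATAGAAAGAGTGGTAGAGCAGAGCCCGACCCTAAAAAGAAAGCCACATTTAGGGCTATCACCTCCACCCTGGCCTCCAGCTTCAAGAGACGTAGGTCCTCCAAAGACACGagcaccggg
Grin1 C2 stretch: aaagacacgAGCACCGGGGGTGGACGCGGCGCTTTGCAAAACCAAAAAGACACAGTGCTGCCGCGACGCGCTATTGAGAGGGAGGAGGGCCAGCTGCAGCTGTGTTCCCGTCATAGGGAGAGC

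Grin1, the obligatory subunit, had the most footprints of the 5. Its footprints were 194 and 154 CPM in WT replicates 1 and 2 and 185 and 188 in DKO replicates 1 and 2. In RNA it had 58.0 and 50.6 CPM in WT and 48.0 and 59.5 in DKO. The footprint libraries thus lay together apart from a lower WT replicate 2, and the genotypes overlapped in both assays.

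Among the glutamate-binding subunits, Grin2a footprints were 26.1 and 20.6 CPM in WT and 26.9 and 25.5 in DKO, and its RNA was 27.9 and 19.3 against 25.2 and 29.7. WT replicate 2 was lowest for Grin2a in both assays. Grin2b footprints were 28.5 and 22.6 CPM in WT and 26.3 and 32.6 in DKO. Its RNA was 18.5 and 19.7 CPM in WT and 20.5 and 20.6 in DKO, the only member and assay in which the genotypes did not overlap. Grin2d had the fewest footprints, 20.2 and 12.7 CPM in WT and 18.5 and 20.0 in DKO. The RNA of Grin2d was 9.27 and 8.40 CPM in WT and 8.95 and 9.88 in DKO, with overlap.

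Grin3a, the juvenile glycine-binding subunit, had footprints of 44.6 and 37.7 CPM in WT and 42.8 and 46.8 in DKO. Its RNA, at 63.3 and 57.0 CPM in WT and 56.4 and 62.0 in DKO, was the highest of the 5 by gene sum. In footprints WT replicate 2 was the lowest library for all 5 genes. In RNA it was lowest for Grin2a and Grin2d, DKO replicate 1 for Grin1 and Grin3a, and WT replicate 1 for Grin2b.

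Genes can be set beside each other only per length, so footprints were divided by the coding length and RNA by the transcript length of the counted isoforms, weighted by their counts. In footprints the order was Grin1 at 72.5 ± 7.09 CPM per kilobase (SD over 4 libraries), Grin2b at 36.4 ± 5.51, Grin3a at 14.5 ± 1.30, Grin2a at 6.05 ± 0.687 and Grin2d at 4.50 ± 0.881. Grin2a and Grin2d overlapped, at 5.04 to 6.56 and 3.20 to 5.08, and no other neighbours did. In RNA the order was Grin1 at 14.1 ± 1.46 CPM per kilobase, Grin2b at 8.999 ± 0.448, Grin3a at 8.74 ± 0.515, Grin2a at 6.13 ± 1.09 and Grin2d at 1.68 ± 0.113. Grin2b and Grin3a overlapped in RNA.

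The footprint density of Grin2b rests on its counted part alone. With all counted coding bases as the length, it was 27.2 CPM per kilobase in place of 36.4, still between Grin1 (61.2) and Grin3a (12.6) on that measure. Footprints are often denser near the start of a coding sequence, above all with cycloheximide, and the table holds no positions, so the effect of reading only the first part was not tested. Per kilobase, Grin2b made up 75.6% to 79.3% of the footprints of the 3 GluN2 genes, Grin2a 11.5% to 14.2% and Grin2d 8.40% to 10.3%. In RNA the shares were 49.9% to 59.1% for Grin2b, 30.7% to 40.0% for Grin2a and 9.70% to 10.2% for Grin2d. The density of Grin1 was 1.08 to 1.23 times the sum of the other 4 genes in footprints and 0.497 to 0.581 times that sum in RNA, with all 4 cultures higher in footprints.

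**Figure D2:**
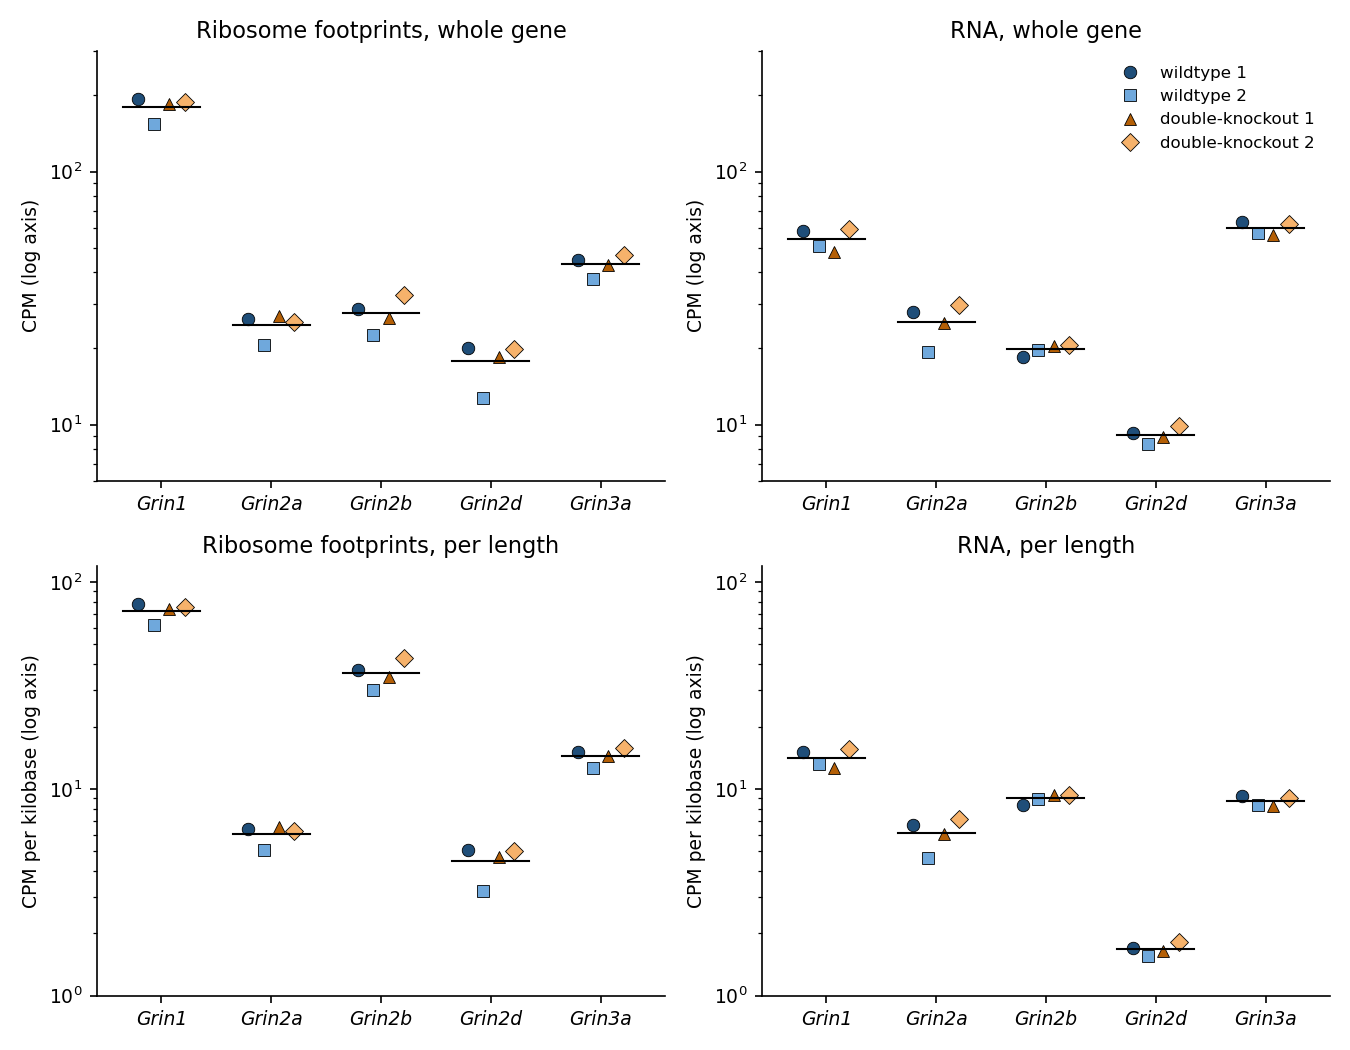
Levels of the 5 subunit genes in the footprint (left) and RNA (right) libraries, as CPM (top) and CPM per kilobase (bottom), on log axes, with 1 point for each library and a line at the mean of 4. WT replicate 2 is the lowest footprint point of each gene, and the points of Grin1 are highest per kilobase in both assays.

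Between genotypes, none of the 5 genes was called in any of the 3 readouts, namely footprints, RNA and translational efficiency. Translational efficiency is the change in footprints relative to the change in RNA, and a call is an adjusted p under 0.05 in edgeR's quasi-likelihood test with Benjamini-Hochberg adjustment over 12898 genes. In footprints the DKO over WT log2 changes were 0.10 ± 0.13 (SE) for Grin1, 0.16 ± 0.18 for Grin2a, 0.21 ± 0.14 for Grin2b, 0.22 ± 0.19 for Grin2d and 0.12 ± 0.11 for Grin3a. Their adjusted p-values in edgeR ran from 0.860 to 0.929. The 5 values are all positive, with a median of 0.16 against 0.00 over all genes tested, but this depended on WT replicate 2. Without both of its libraries they were −0.06, 0.00, 0.06, −0.06 and 0.01 in the same order. Without both libraries of WT replicate 1, the Grin2d value was 0.62 (adjusted p = 0.0709, edgeR) and that of Grin2b 0.41 (adjusted p = 0.197, edgeR). In footprints WT replicate 2 also had the lowest summed pan-neuronal markers, 6613 CPM against 7188 to 7953, besides the marker sums given above. In RNA the lowest pan-neuronal sum was that of DKO replicate 1, 4111 CPM, with WT replicate 2 at 4226 and the others at 4568 and 4710. In the DKO over WT footprint changes, 0 of 12 oligodendrocyte lineage markers tested were positive (median −0.44, 9 below WT without overlap). Of 10 progenitor and dividing cell markers 0 were positive (median −0.39, 7 below). Over all tested genes 6550 of 12898 were positive, and 16.2% lay below WT without overlap. Of 10 mesenchymal and endothelial markers 0 were positive (median −0.64, 0 below), and of 10 astrocyte markers 3 were (median −0.18, 4 below). Among 10 pan-neuronal markers 8 were positive (median 0.06). Summed, the oligodendrocyte lineage markers were 1056 and 1277 CPM in WT against 846 and 900 in DKO. The progenitor and dividing cell markers were 4618 and 5041 against 3696 and 4075. Most of this sum was Fabp7 alone, at 3769 and 3708 against 2868 and 3260. None of these markers was called. The part of these marker levels and of the culture codes in the footprint values of the receptor genes was not tested, and in bulk samples fewer cells of a type and less RNA per cell cannot be told apart.

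In RNA the log2 changes were −0.02 ± 0.14 for Grin1, 0.22 ± 0.18 for Grin2a, 0.10 ± 0.14 for Grin2b, 0.09 ± 0.20 for Grin2d and −0.02 ± 0.11 for Grin3a, with adjusted p from 0.894 to 0.995 in edgeR. In translational efficiency they were 0.12 ± 0.19, −0.06 ± 0.26, 0.11 ± 0.20, 0.13 ± 0.28 and 0.15 ± 0.16 in the same order, each with an adjusted p of 0.9997 in edgeR. The 95% intervals show what these 2 libraries a group could not resolve. For Grin1 the footprint interval ran from 0.875-fold to 1.31-fold and the RNA interval from 0.803-fold to 1.21-fold. For Grin2d, the gene with the fewest counts, the footprint interval ran from 0.870-fold to 1.56-fold and that of translational efficiency from 0.721-fold to 1.67-fold. The background was low: 0.00775% of tested genes were called higher in footprints (1 gene) and 0.0155% in the RNA libraries (2 genes). In both assays 0% were called lower, and 0% were called in either direction in translational efficiency. At an unadjusted p under 0.05 there were 725 genes for footprints, 719 for RNA and 110 for translational efficiency. By chance 644.9 would be expected in each. DESeq2 called 5, 13 and 1 in the same order. The Grin2b RNA levels, whose groups did not overlap, are 1 of 5 members with DKO above WT, where 19.6% of tested genes lay so (and 18.9% with DKO below). In footprints no member lay apart in either direction, against 16.3% of tested genes above and 16.2% below. The labels do not say how the replicates were raised, so a p-value here reflects only how much these libraries vary, which may be technical.

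The Grin2b to Grin2a ratio, a measure of maturity, was close to even in the gene sums. In footprints it was 1.09 and 1.10 in WT and 0.981 and 1.27 in DKO, from 253 to 551 counts of Grin2b and 258 to 463 of Grin2a. In RNA it was 0.661 and 1.02 in WT and 0.814 and 0.695 in DKO. The genotypes overlapped in both assays. DKO minus WT was 0.03 on the log2 scale in footprints and −0.13 in RNA, each with p = 1 in a two-sided exact permutation test, in which 2 libraries against 2 cannot go below 0.333. The sign turned without footprints of DKO replicate 2 (−0.16) and without RNA of WT replicate 2 (0.19).

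The sums hide a length difference, since Grin2b was counted over 1010 coding bases and Grin2a over 4392. Per kilobase, the footprint ratio was 5.92 and 5.94 in WT and 5.32 and 6.91 in DKO, all above 1. With all counted coding bases as the length it was 4.26 to 5.54. In RNA the ratio per kilobase was 1.25 and 1.93 in WT and 1.54 and 1.31 in DKO. Per length, Grin2b thus exceeded Grin2a in all 8 libraries, whereas by gene sum it did so in 4 of 8.

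**Figure D3:**
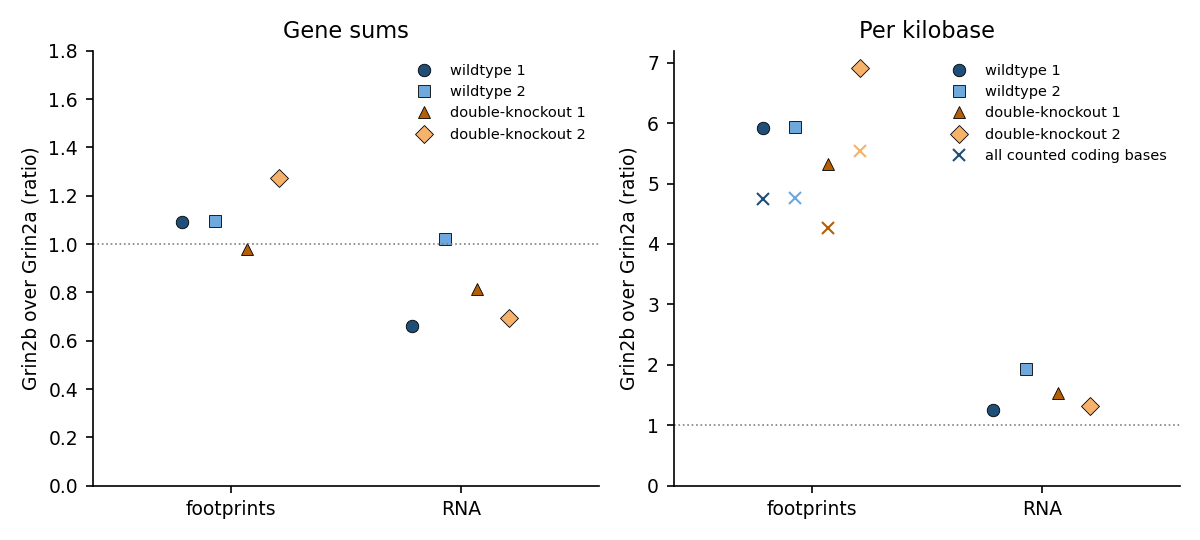
Grin2b over Grin2a (y axis, linear) in footprints and RNA, from gene sums (left) and per kilobase (right), with 1 point for each library, crosses for the length of all counted coding bases and a dotted line at 1. Gene sums lie between 0.661 and 1.27, and the ratios per kilobase between 1.25 and 6.91.

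Other pairs of an early and a late gene were read the same way, in log2 early over late. Dlg3 encodes SAP102, a scaffold of young synapses, and Dlg4 encodes PSD-95, its mature counterpart. Dlg3 over Dlg4 was −1.82 and −1.83 in WT footprints and −1.99 and −1.93 in DKO. In RNA it was −0.99 and −0.68 in WT and −1.38 and −1.09 in DKO, again with both DKO values lower. Dcx, a microtubule protein of young neurons, over Rbfox3, the NeuN gene, was 2.30 and 2.24 in WT footprints and 2.14 and 2.22 in DKO. The same pair in RNA was 3.27 and 3.18 in WT and 2.98 and 3.03 in DKO. These 4 differences each gave p = 0.333, the smallest that this exact permutation test can give, so the design cannot call them. Slc12a2 over Slc12a5, chloride transporters, and Nefm over Nefh, neurofilament subunits, overlapped in both assays.

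The 5 genes differed in how many footprints they had for their RNA. Relative to the typical gene, Grin1 had more footprints for its RNA by a log2 difference of 1.74 ± 0.10 (SE; adjusted p = 1.79e-08, edgeR). Grin2d followed at 0.97 ± 0.14 (adjusted p = 4.80e-05, edgeR) and Grin2b at 0.47 ± 0.10 (adjusted p = 0.00098, edgeR). Grin3a had fewer, at −0.47 ± 0.08 (adjusted p = 0.000165, edgeR), and Grin2a gave −0.03 ± 0.13 (adjusted p = 0.832, edgeR). So 3 of 5 were called higher and 1 lower. Such calls were common, with 36.5% of all tested genes called higher and 38.2% lower, and the count for the 5 genes is no result by itself. Scaling by TMM within each assay moved the median of all tested genes from −0.01 to −0.24 and the calls from 48.8% higher and 51.2% lower to 36.2% and 63.8%. The values of Grin2b (0.24) and Grin3a (−0.70) moved with it, and both were still called. With protein-coding isoforms only, which leaves out Grin3a-203, the Grin3a value was −0.90.

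These sums mix length with translation, because footprints cover coding sequence and RNA the whole transcript. As densities, the log2 footprint over RNA values were 2.36, 2.23, 2.57 and 2.28 for Grin1 in WT replicates 1 and 2 and DKO replicates 1 and 2. Grin2b gave 2.17, 1.74, 1.91 and 2.20, and Grin2d 1.57, 1.05, 1.502 and 1.47. Grin3a gave 0.69, 0.60, 0.80 and 0.79, and Grin2a −0.08, 0.12, 0.12 and −0.19. The median over tested genes was 1.10, so that Grin1 and Grin2b lay above it in every culture and Grin3a and Grin2a below it. By mean density, Grin1 stood at the 88.6th percentile of tested genes, Grin2b at the 81.3rd, Grin2d at the 61.4th, Grin3a at the 34.8th and Grin2a at the 12.8th. Uncorrected for length, the percentiles were 97.4, 70.9, 86.8, 30.1 and 49.4, so Grin2a moved down and Grin2b and Grin2d changed places.

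All 10 pairs of members were compared over the 4 cultures on this density scale. In each pair the same gene was higher in 4 of 4 cultures, and each gave p = 0.125 in a two-sided exact sign-flip permutation test, the smallest it can give (0.125 after adjustment over the 10 pairs). The difference was largest between Grin1 and Grin2a, at 2.37 ± 0.17 on the log2 scale (SD, n = 4), and smallest between Grin1 and Grin2b, at 0.36 ± 0.27. Grin2b exceeded Grin2a by 2.01 ± 0.37 per length and by 0.49 ± 0.37 in sums. Grin2a against Grin3a changed direction with the scale, from 0.44 ± 0.21 higher for Grin2a in sums to −0.73 ± 0.21 per length. For Grin2b the RNA length of 2.20 kilobases belongs to short transcripts, and reads from the rest of its full-length mRNA were not counted, so its density ratio holds for the counted part only.

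**Figure D4:**
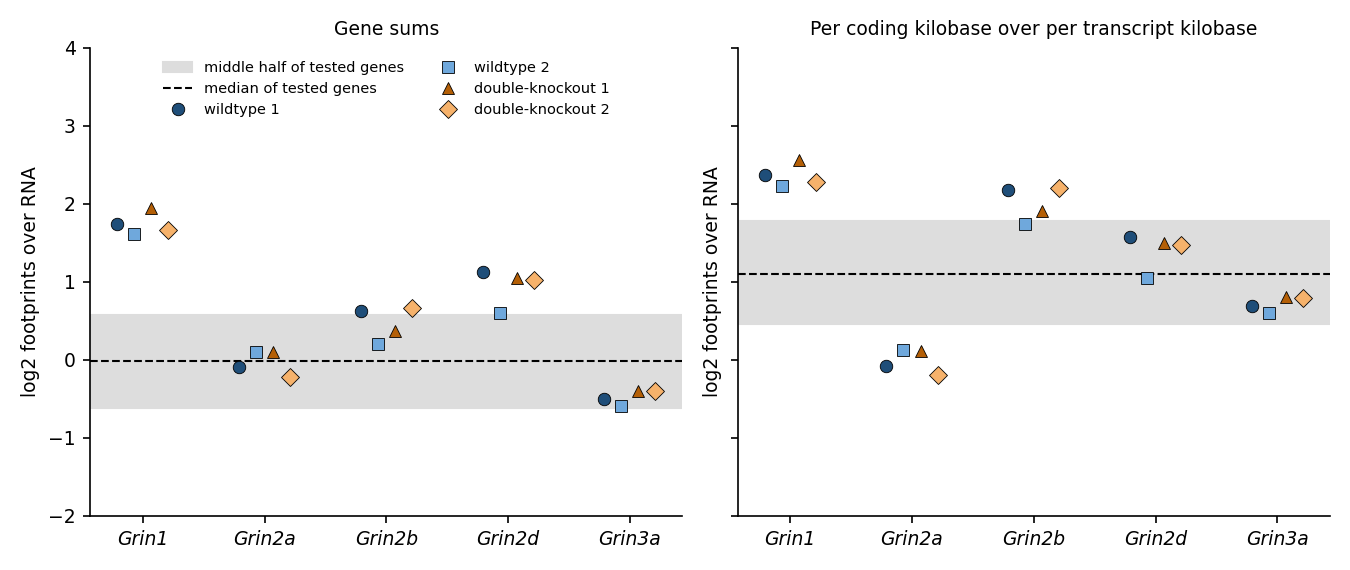
Log2 footprints over RNA (y axis) for the 5 genes in each of 4 cultures, from gene sums (left) and per coding kilobase over per transcript kilobase (right). The dashed line is the median of tested genes and the grey band their middle 50%; Grin2a lies close to the median at left and below the band at right.

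Within Grin1, the counted coding isoforms are 3. Grin1-201 lacks the N-terminal cassette and has C1 and C2, Grin1-207 has the cassette and the short tail, and Grin1-205 has neither. The remaining 5 annotated coding isoforms have support level 5, so among coding isoforms a read from the cassette could be assigned only to a short-tailed one. Of the counts of the 3, Grin1-201 took 60.8% and 50.8% in WT footprints and 61.7% and 51.0% in DKO. In RNA it took 22.8% and 29.5% in WT and 28.2% and 29.9% in DKO, below every footprint library. Grin1-207 took 39.2% and 40.6% in WT footprints and 36.3% and 41.2% in DKO, against 28.7%, 19.5%, 22.2% and 28.98% in RNA.

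Grin1-205 filled the difference. It took 0%, 8.57%, 1.95% and 7.81% in footprints and 48.5%, 51.0%, 49.6% and 41.2% in RNA. The 0%, in WT replicate 1, is kallisto's allocation of 2903 counts among the 3 isoforms and not a measured absence. The assays therefore did not overlap for any of the 3 isoforms, while within each assay the genotypes overlapped for all 3. These shares are kallisto's division of reads among isoforms that share most of their sequence, and they were not tested. Footprints cover coding sequence alone, whereas RNA reads also cover the untranslated parts by which these isoforms differ; the part of this in the shares was not tested.

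**Figure D5:**
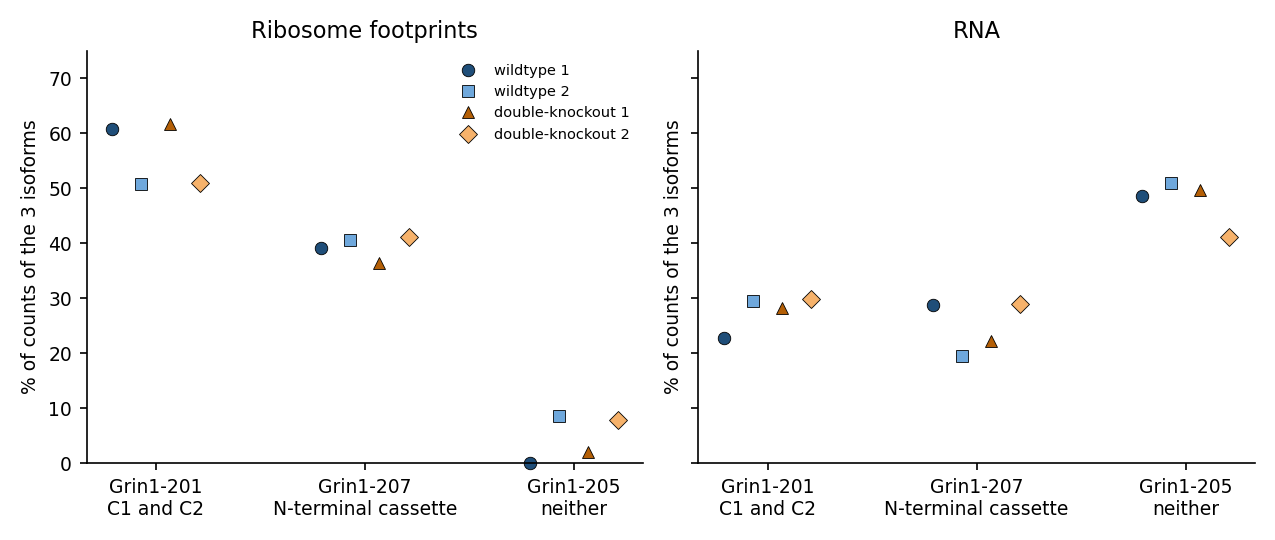
Share of each Grin1 coding isoform in the counts of the 3 (y axis, %), in footprints (left) and RNA (right), with 1 point for each library. Grin1-205 lies at 0% to 8.57% in footprints and at 41.2% to 51.0% in RNA.

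Noncoding isoforms took part of the sums as well. The processed transcripts Grin1-210 and Grin1-213 took 4.85% to 7.83% and 5.06% to 7.68% of Grin1 footprints, but at most 0.650% and 0.786% of its RNA. Other processed transcripts went the opposite way: Grin1-214 took 4.31% to 6.66% of Grin1 RNA and 0.116% to 0.377% of footprints, and Grin1-211 3.04% to 4.48% of RNA and at most 0.116% of footprints. The processed transcript Grin3a-203, of whose 3799 bases 2352 lie in the Grin3a coding sequence, took 33.1% to 42.3% of Grin3a footprints and 13.7% to 18.0% of its RNA. The split of the remainder between Grin3a-201 and Grin3a-202 was unstable in footprints, with 6.19% to 52.3% of the gene on Grin3a-202. Grin2a-203, a retained intron, held 5.40% to 9.69% of Grin2a footprints and 5.76% to 11.4% of its RNA. For Grin2b, the 601-base Grin2b-206 took 20.2% to 29.8% of footprints and 0% to 20.0% of RNA, and Grin2b-205 nearly all of the rest.

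The genes around the receptor were read from 6 lists with 87 genes, of which 84 were tested. In footprints 1 of 84 was called higher and 0 lower, and likewise in RNA, the same gene in both; 0 were called in translational efficiency. Median log2 changes were 0.03 for footprints, −0.03 for RNA and 0.04 for translational efficiency, against 0.00, 0.00 and 0.01 over all tested genes. In footprints 15 of 84 lay above WT without overlap and 10 below, where 16.3% and 16.2% of all tested genes did. In RNA the counts were 20 and 20, against 19.6% and 18.9%. Footprints against RNA called 34 higher and 29 lower, against 36.5% and 38.2%. Shank1 (18.6%) and Rasgrf2 (49.4%) had under 50% of their coding bases counted, as Grin2b did.

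Rasgrf1, a calmodulin-responsive exchange factor that binds GluN2B, was the gene called. Its footprints were 54.6 and 46.1 CPM in WT and 111 and 98.5 in DKO, and its RNA was 32.5 and 33.5 against 62.3 and 65.2. The groups stood well apart in both. The log2 changes were 1.05 ± 0.11 (adjusted p = 0.00813, edgeR) and 0.95 ± 0.11 (adjusted p = 0.0242, edgeR). The footprint call was lost without the footprints of WT replicate 2 (log2 change 0.94, adjusted p = 0.0791, edgeR), DKO replicate 1 (0.97, 0.132) or DKO replicate 2 (1.14, 0.0519). The RNA call was lost without the RNA of WT replicate 1 (adjusted p = 0.100, edgeR), WT replicate 2 (0.213) or DKO replicate 1 (0.107), and without the footprints of either DKO replicate (0.121 each). It was lost too without both libraries of WT replicate 2 (0.0556), and both calls were lost without both of either DKO culture. The log2 change stayed between 0.92 and 1.20 in both assays over all settings that left out libraries or cultures. With the replicate number as a block the footprint call was lost (log2 change 1.05, adjusted p = 0.0536, edgeR).

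The other members of the kinase and signalling list, 23 of 24, were not called. Among 22 scaffold genes, which tether the receptor in the postsynaptic density, 0 were called, and the smallest p-values in footprints were those of Shank2 and Homer1. Shank2 had footprints of 32.7 and 27.3 CPM in WT and 41.5 and 37.6 in DKO, and RNA of 22.9 and 22.6 against 28.1 and 28.6. Its log2 changes were 0.39 ± 0.11 and 0.31 ± 0.11, with adjusted p of 0.837 and 0.851 in edgeR, although both assays kept the genotypes apart. Homer1 footprints were 46.2 and 41.6 CPM in WT and 52.4 and 54.8 in DKO (log2 0.29 ± 0.10, adjusted p = 0.837, edgeR). The RNA of Rph3a, which binds GluN2A, was 19.3 and 23.8 CPM in WT and 13.9 and 18.6 in DKO (adjusted p = 0.851, edgeR). Of the scaffold RNAs 11 of 22 lay above WT without overlap and 3 below, where 19.6% and 18.9% of all tested genes did. In footprints the counts were 5 and 4 of 22, against 16.3% and 16.2%.

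Transmembrane and extracellular partners gave 0 calls of 13 tested. Nlgn1, a synaptic adhesion protein, had RNA of 292 and 362 CPM in WT and 248 and 274 in DKO, and Ephb2, a receptor kinase that clusters NMDA receptors, 80.7 and 82.2 against 67.5 and 75.6. Both lay lower in DKO without overlap. In RNA 6 of the 13 lay below WT in this way and 1 above, where 18.9% and 19.6% of all tested genes did. Lrp8, a Reelin receptor, had footprints of 61.9 and 75.3 CPM in WT and 60.4 and 62.5 in DKO, which overlap, and those of Nrg1, a ligand of ErbB receptors, were 11.4 and 9.01 against 12.5 and 11.9.

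Genes that supply the co-agonists glycine and D-serine gave 0 calls of 12 tested, with a median footprint change of 0.11. Footprints of Shmt2, which makes glycine from serine, were 34.6 and 34.5 CPM in WT and 40.3 and 39.0 in DKO. Psph, the last enzyme of serine synthesis, had footprints of 36.3 and 31.8 CPM against 39.0 and 39.5, and RNA of 31.8 and 28.5 against 36.0 and 33.6. RNA of Gldc, which degrades glycine, was 14.1 and 18.0 CPM in WT and 10.2 and 12.4 in DKO. Their adjusted p-values were 0.849 to 0.851 in edgeR, with groups that did not overlap. In footprints 6 of the 12 lay above WT without overlap and 1 below, where 16.3% and 16.2% of all tested genes did. In RNA the counts were 4 and 3, against 19.6% and 18.9%.

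The 4 AMPA receptor subunit genes, which encode the fast glutamate receptors of the same synapse, gave 0 calls. Gria1 footprints were 127 and 90.5 CPM in WT and 126 and 124 in DKO, with WT replicate 2 low as for the NMDA receptor genes. Gria3 footprints were 102 and 87.8 CPM against 89.1 and 87.8, and its RNA was 64.5 and 61.0 against 52.4 and 61.7. The RNA of Gria4 was 266 and 252 CPM in WT and 235 and 245 in DKO. Of the transcriptional regulators linked to the subunit switch, 0 of 9 tested were called. Ezh2, a Polycomb methyltransferase, had footprints of 29.3 and 38.4 CPM in WT and 25.9 and 25.6 in DKO (adjusted p = 0.849, edgeR). Rest, a repressor of neuronal genes, had footprints of 20.6 and 26.4 CPM against 22.3 and 17.9, and RNA of 38.4 and 45.7 against 36.2 and 35.3. Nrf1 RNA was 37.5 and 38.3 CPM against 32.8 and 36.9.

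The members' patterns over the 8 libraries of 4 cultures were set beside those of 12677 tested genes with a mean of at least 1 CPM. Likeness was the root mean square difference of log2 CPM after centring within each assay. Nearest to Grin1 were Spock2 (0.02), Terf2ip (0.03) and Crmp1 (0.03), and nearest to Grin3a were Sarm1 (0.02), Gap43 (0.02) and Vps45 (0.02). Coro1a (0.02), Chst1 (0.04) and Unc13a (0.05) were nearest to Grin2a. For Grin2b they were Foxj3 (0.03), Rwdd2b (0.04) and Zfp760 (0.05), and for Grin2d Phlpp2 (0.05), Mrps31 (0.05) and Abca5 (0.06). Among the members the most alike were Grin1 and Grin3a, at 0.06, and the least alike Grin2a and Grin2b, at 0.20. The median over the 12677 genes was 0.16 for Grin1, 0.22 for Grin2a, 0.17 for Grin2b, 0.22 for Grin2d and 0.14 for Grin3a. With 4 cultures, such closeness is a description.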

How the data were processed

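Ribosome footprints (ARTseq kit, per the labels' protocols) and RNA were sequenced in 2 libraries for each of 4 groups. The tools named in the submitters' processing notes are kallisto, Bowtie, Trimmomatic and FastQC, with no version; the transcript set, build and strand handling used are not stated there. The deposited values are estimated counts per transcript, whole numbers as the authors deposited them, and kallisto divides reads among isoforms. Of 60528 transcripts, 60444 matched GENCODE M21 (GRCm38) by identifier. The other 84, with 0.0765% to 0.151% of a library's counts, were left out, and the rest were summed over isoforms to 18301 genes.

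The test was the quasi-likelihood test of edgeR 4.0.16 (R 4.3.3, limma 3.58.1), with 4 group means over the 8 libraries and TMM scaling, leaving 4 residual degrees of freedom. Genes passing filterByExpr (minimum count 10) in both assays, 12898, were tested and 5403 were not. The procedure was tested on simulated data. Ratios within a library were compared by exact permutation. A gene's length was the mean over its isoforms, weighted by their counts.

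The members and lists were chosen with earlier results of these data known. The text names all subunit genes and both genes of each maturation pair. From each list it names up to 4 called genes or, with none, the 2 of smallest p in footprints and in RNA. It also names the 3 genes of nearest pattern to each member. Single marker genes of the labelled cell type and of GABAergic neurons were named beyond this rule, after their values were seen. So were the genes with few coding bases counted and the targeted genes. Some genes that these rules name are not reported here.

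Footprint and RNA libraries of a genotype and number were taken as 1 culture from the culture codes in the labels. The footprint and RNA labels spell the code of DKO replicate 2 in unlike ways, so this match is uncertain. Across genes, the difference between the replicates of WT had a correlation of 0.579 between assays, and that of DKO 0.200. The alternatives were other scalings and filters, DESeq2 1.42.0, limma-voom, protein-coding isoforms only, 1 assay alone, replicate blocks and leaving out libraries or cultures. Forms of the ratio and levels per length, and a block with crossed numbers, were chosen after seeing the data.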

Additional observations from a re-analysis of the deposited data

How the results depend on the processing

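Over 420 alternative values for the members' log2 changes, none changed whether a member was called, and 36 changed sign. Grin2a in footprints against RNA became 0.02 with no filter and 0.00 (0.002) with limma-voom. Leaving out libraries or cultures gave −0.057 to 0.29 for Grin1 in footprints, −0.175 to 0.145 in RNA and −0.052 to 0.3 in translational efficiency. The ranges were −0.037 to 0.539 for Grin2a in RNA, −0.386 to 0.182 in translational efficiency and −0.156 to 0.123 in footprints against RNA. They were −0.096 to 0.347 for Grin2b in translational efficiency, −0.065 to 0.621 and −0.152 to 0.522 for Grin2d in footprints and translational efficiency, and −0.102 to 0.092 for Grin3a in RNA. For list genes they were −0.027 to 0.482 (Gria1 footprints) and −0.205 to 0.029 (Gria3 footprints). The causes of these changes were not tested.

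The mean log2 Grin2b to Grin2a ratio in footprints, 0.15, became −0.21 from the most abundant isoforms, 2.58 per weighted kilobase and 2.27 (2.265) per kilobase of the most abundant isoforms or of all counted coding bases. In RNA, −0.35 became 0.57 and 0.49 with the first 2 lengths. Lengths differ by construction. DKO minus WT without single libraries ran from −0.158 to 0.221 in footprints and from −0.442 to 0.185 in RNA.

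Genes called in footprints, 1, became 3 with no filter, 2 with a mean count of at least 50 and 5 with DESeq2, and 0 to 520 when libraries or cultures were left out. Those in RNA, 2, became 6 with no filter, 13 with DESeq2, 1 in RNA libraries alone and 0 to 473. Both maxima are without both libraries of WT replicate 1, and without both of WT replicate 2 the counts were 4 and 0. Translational efficiency, 0, became 2 with protein-coding isoforms only, 1 with DESeq2 and 0 to 1. With the replicate number as a block, RNA gave 40 genes, footprints 1, and with the culture as a block translational efficiency 0. WT and DKO libraries share only a number: their replicate differences correlated at −0.13 in footprints and −0.14 in RNA. With crossed numbers the block gave 13 genes in footprints and 4 in RNA. Depth limits Grin2d most, with 145 to 437 counts in RNA libraries and 175 to 358 in footprints.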
